A study of Mus musculus with 6 samples.

Results

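The 8 genes described here encode secreted or shed growth factors that myeloid cells can make: Igf1, Hbegf, Pdgfa, Pdgfb, Osm, Inhba, Nrg1 and Gdf15. They were picked by symbol from the gene rows of a mouse glioma study. They are 8 of the 30406 genes listed in all 3 pools of cells, and each had UMIs in every pool. The measurement was CITE-seq, in which transcripts and DNA-barcoded antibodies are read from the same droplet. The cells were CD11b+ cells, that is cells carrying an integrin subunit of myeloid cells, taken at 12 weeks of age from the brain of C57BL/6 mice. Each of the 3 pools combined 6 samples marked with hashtag antibodies: a female and a male control without tumor, a female and a male at day 14 after tumor implantation, and a female and a male at day 21. Control brains were taken whole and tumor-bearing hemispheres were taken from the others. Which hashtag number marks which of these 6 groups is not given, nor which animals gave a sample. No hashtag was therefore given a group, and values by hashtag are described with no test. The tests compare classes of cells inside the same hashed sample, except for a rare class compared inside the same pool.

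The factors act through separate receptors. IGF-1, the product of Igf1, signals through the IGF-1 receptor, and its access to that receptor is set by IGF binding proteins. HB-EGF and neuregulin 1, from Hbegf and Nrg1, belong to the EGF family and bind EGFR or the ERBB receptors, often after cleavage from the cell surface by ADAM proteases. Pdgfa and Pdgfb encode the chains of platelet-derived growth factor, which act on pericytes and other mesenchymal cells and on glial precursors. Oncostatin M, from Osm, is an IL-6 family cytokine that signals through gp130. Inhba encodes the subunit of activin A, and Gdf15 encodes a divergent TGF-beta family member made under cell stress.

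The mRNA libraries held 74848339 UMIs, that is distinct molecules, in pool 1, 107880924 in pool 2 and 71510276 in pool 3. A barcode was used where one hashtag held at least 80% of its hashtag UMIs. This kept 10906 of 13766 filtered barcodes in pool 1 and 9351 of 10688 in pool 2, but only 1888 of 11760 in pool 3, so pool 3 stands apart and is thin. Between 5 and 19 barcodes that passed the filters were shared between any pair of pools. The resulting 22145 cells fell into 24 clusters, made without the 8 genes and without the pathway lists. Clusters were named from marker lists as microglia-like (9788 cells), macrophage-like (6829), monocyte-like (1935), dendritic cell-like (890) and border macrophage-like (133). The border macrophage-like cells correspond by their markers Pf4, Mrc1, Lyve1 and Cd163 to macrophages of the meninges and vessels. The TMEM119 antibody, which was not used for clustering, placed 94.96 to 96.00% of microglia-like cells above its cutoff and 96.9 to 99.2% of monocyte- and macrophage-like cells below it. All samples under hashtags 3 to 6 held at least 20 macrophage-like cells, whereas samples under hashtags 1 and 2 held 0 to 3, so the tests against macrophages draw on hashtags 3 to 6 alone.

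Promoter windows of 4 of the 8 genes were present in the RefSeq table of build GRCm38.p6. The windows of 3 are shown for the genes with the highest level in a small cluster: Igf1 in border macrophage-like cells, and Inhba and Gdf15 in 1 macrophage-like cluster led by interferon-induced genes, among the clusters of the 5 classes. Each is the 250 bases before an annotated start, written along the strand of the gene, with motif matches in capitals. The windows are chr10:87860861-87861110 (+) for Igf1, chr13:16011601-16011850 (+) for Inhba and chr8:70632457-70632706 (-) for Gdf15, which has another annotated start that is not shown. The Igf1 and Inhba windows lie inside the spans annotated for these genes, chr10:87858265-87937047 and chr13:16004256-16031609.
Igf1: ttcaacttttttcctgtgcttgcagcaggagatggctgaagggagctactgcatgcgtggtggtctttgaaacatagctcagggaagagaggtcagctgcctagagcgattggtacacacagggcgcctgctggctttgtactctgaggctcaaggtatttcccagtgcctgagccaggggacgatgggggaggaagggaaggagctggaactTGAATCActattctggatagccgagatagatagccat
Inhba: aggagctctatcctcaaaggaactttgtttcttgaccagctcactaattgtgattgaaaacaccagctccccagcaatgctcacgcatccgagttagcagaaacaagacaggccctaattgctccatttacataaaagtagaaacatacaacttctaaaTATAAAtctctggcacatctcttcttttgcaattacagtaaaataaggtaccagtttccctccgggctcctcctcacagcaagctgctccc
Gdf15: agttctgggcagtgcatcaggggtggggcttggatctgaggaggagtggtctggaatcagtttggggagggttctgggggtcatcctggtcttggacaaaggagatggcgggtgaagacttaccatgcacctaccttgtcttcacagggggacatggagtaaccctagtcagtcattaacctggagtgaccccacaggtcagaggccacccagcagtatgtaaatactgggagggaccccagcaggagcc
Motifs were searched on both strands as exact letters: TATAAA for the core promoter box, TGANTCA for AP-1, TGACGTCA for the cyclic AMP element (CRE), TGATGNAA for the composite site of CHOP and ATF4, and, by its consensus, the interferon-stimulated response element. The Igf1 window held 1 AP-1 match, 31 to 37 bases before the start, and 6.75% of 32851 windows of that length held one. The Inhba window held 1 TATAAA match, 86 to 91 bases before the start, and 12.4% of windows held one. The Gdf15 window shown held none of the 5, where 1.55% of windows held a CRE, 3.45% the CHOP and ATF4 site and 2.98% the interferon element. The matches describe letters only.

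Each gene had its own order of classes, and none of the 5 classes led for all 8. Levels are given as CPM, the UMIs of the gene per 1000000 UMIs of the class. Igf1 was highest in border macrophage-like cells in every pool, at 115 ± 49.3 CPM (mean ± SD over 3 pools), against 6.86 ± 1.66 in microglia-like and 6.29 ± 1.31 in macrophage-like cells. Pdgfb was highest in microglia-like cells in every pool (181 ± 47.7 CPM). Among the 5 classes, Osm and Nrg1 were highest in monocyte-like cells in every pool (408 ± 76.5 and 80.7 ± 37.4 CPM). Neutrophil-like cells, which are outside the 5, had 482, 295 and 890 CPM of Osm in pools 1 to 3, from 20, 41 and 13 cells, and so exceeded monocyte-like cells in pools 1 and 3. Inhba was highest in macrophage-like cells in pools 1 and 2, at 129 and 96.5 CPM, whereas in pool 3 monocyte-like cells had 64.4 and macrophage-like cells 53.1 CPM with overlapping counting intervals. For Hbegf, border macrophage-like cells came first in each pool and microglia-like cells came second, with overlapping intervals, so their order was not settled. Pdgfa was at 43.8 ± 7.03 CPM in microglia-like and 37.5 ± 4.77 in macrophage-like cells, with overlapping intervals in pool 2 alone. Gdf15 had a different leading class in each pool, but the intervals of the first and second class overlapped in pools 1 and 3. The lead of border macrophage-like cells in pool 1 rested on 3 UMIs.

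**Figure D1:**
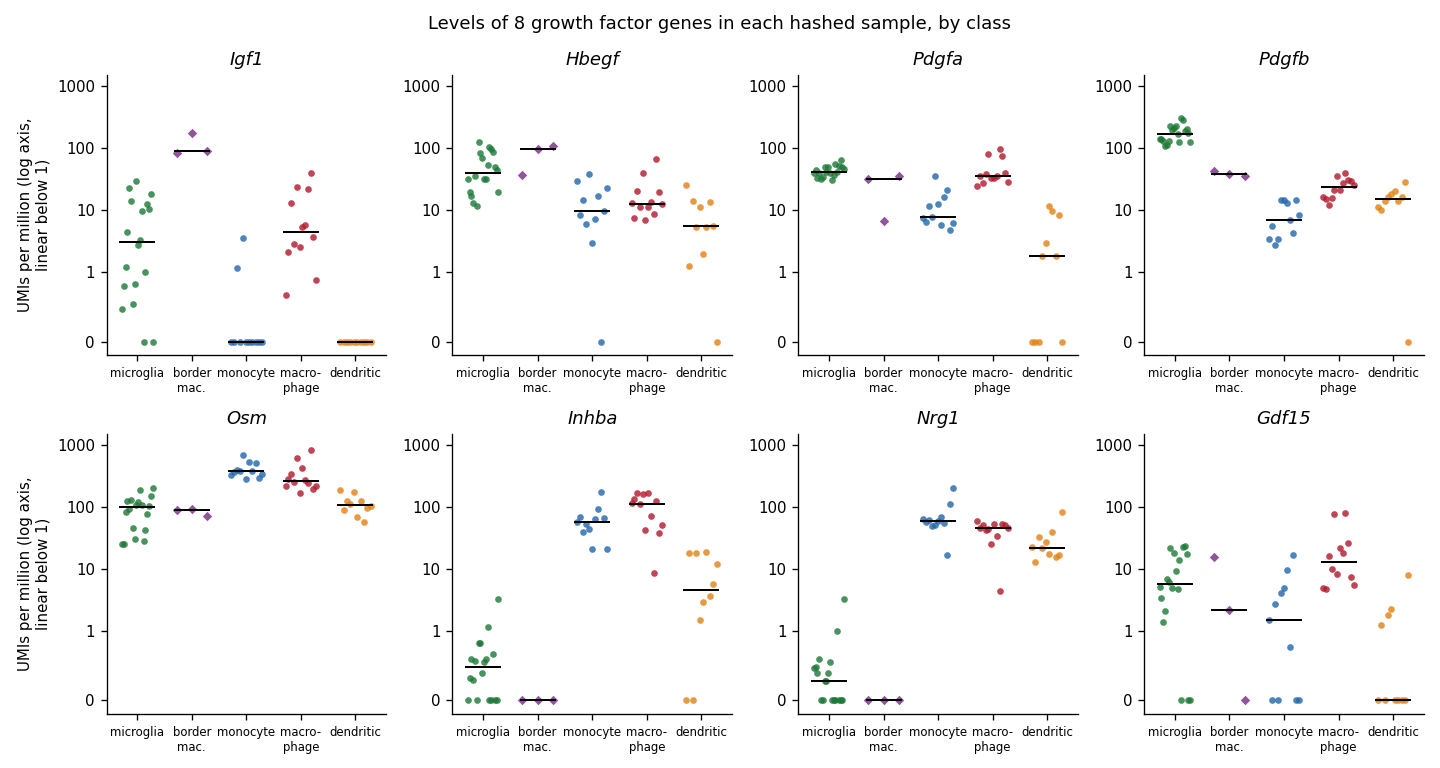
Level of each gene in CPM (vertical axis, logarithmic above 1 and linear below) in 5 classes of cells. Circles are hashed samples with at least 20 cells of the class, diamonds are the 3 pools for the rarer border macrophage-like cells, and bars are medians; Inhba and Nrg1 are near 0 in microglia-like and border macrophage-like cells and high in monocyte- and macrophage-like cells.

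Because the classes differ in size and in RNA per cell, the class with the highest level was not always the class that held most of the transcripts. Over all pools, border macrophage-like cells made up 0.601% of the cells and held 8.51% of the 1163 Igf1 UMIs (95% Clopper-Pearson interval 6.97 to 10.3%), while macrophage-like cells held 42.0% and microglia-like cells 30.4%. A further 12.3% of Igf1 UMIs came from cells that were given no name. Microglia-like cells held 75.0% of 12183 Pdgfb UMIs and 60.2% of 4328 Hbegf UMIs. Macrophage-like cells held 88.3% of 8848 Inhba UMIs, 71.4% of 4421 Nrg1 UMIs, 67.3% of 2086 Gdf15 UMIs, 63.7% of 35824 Osm UMIs and 50.4% of 5721 Pdgfa UMIs. Some of these shares differed by pool: macrophage-like cells held 65.2, 71.9 and 36.4% of the Gdf15 UMIs in pools 1 to 3, and in pool 3 microglia-like cells held 35.0% and dividing cells 23.3%. For Pdgfa, microglia-like cells held more than macrophage-like cells in pool 1 (45.2 and 42.6%). These shares follow the cells captured and are not shares of the brain. The intervals cover counting error only.

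**Figure D2:**
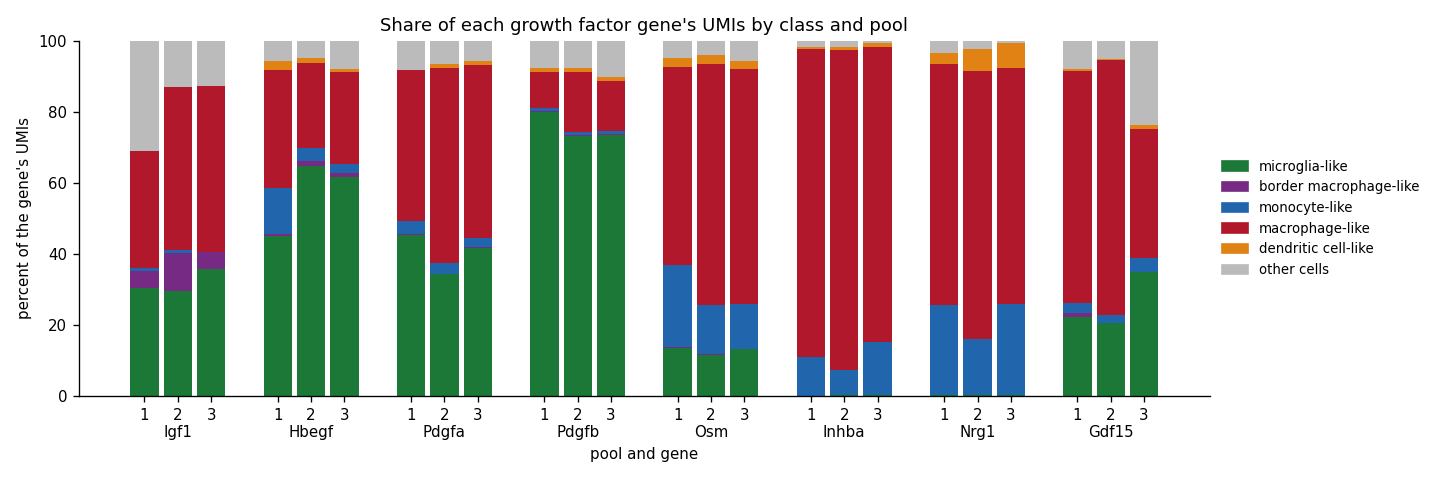
Percent of each gene's UMIs (vertical axis) held by each class in pools 1, 2 and 3 (horizontal axis). Microglia-like cells hold most of the Pdgfb UMIs and macrophage-like cells most of the Inhba, Nrg1 and Osm UMIs in all 3 pools.

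Lymphoid cells, which should lack most myeloid transcripts, were read beside the 5 classes because free RNA can add UMIs to any droplet. NK cell-like cells, with a median of 2902 UMIs, had no UMI of Igf1, Nrg1 or Gdf15, which allows up to 1.45 CPM at 3 counts, and 0.483 CPM of Inhba. They had 2.41 CPM each of Hbegf and Pdgfa, but 32.3 CPM of Pdgfb and 35.2 CPM of Osm. To compare shares of cells, each cell was thinned to 2000 UMIs and shallower cells were left out (459 of the microglia-like, 125 of the macrophage-like, 36 of the monocyte-like, 26 of the border macrophage-like and 105 of the NK cell-like cells). A Pdgfb UMI was then seen in 26.7% of microglia-like cells (49.96% unthinned), 6.26% of NK cell-like cells (8.33% unthinned), 3.52% of macrophage-like cells (16.4% unthinned) and 1.79% of monocyte-like cells (4.50% unthinned). The thinned Pdgfb shares of monocyte- and macrophage-like cells were thus below that of NK cell-like cells, so no expression is read from them. The NK cell-like level is not a measure of free RNA alone, since monocyte-like cells had less Pdgfb (7.95 CPM). The macrophage-like cluster led by Dpep2 had 72.4 CPM of Pdgfb in 864 cells. In that cluster all 14 microglia markers were each seen in at least 10% of cells, at a summed 10160 CPM against 687 to 1240 in the other 3 macrophage-like clusters, and its median was 12423 UMIs. Their part in its Pdgfb was not tested. An Osm UMI was seen in 46.6% of thinned monocyte-like cells (74.0% unthinned), 38.8% of macrophage-like (75.9% unthinned), 9.55% of microglia-like (20.1% unthinned) and 4.97% of NK cell-like cells (9.26% unthinned). An Igf1 UMI was seen in 29.0% of thinned border macrophage-like cells (41.4% unthinned) against 0.557% of microglia-like (1.28% unthinned) and 1.22% of macrophage-like cells (3.397% unthinned).

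The tests below used edgeR's quasi-likelihood model on counts summed per hashed sample and class, with the hashed sample as a block, and p-values adjusted by Benjamini-Hochberg over all genes tested. Adjusted p-values and log2 fold changes with their SE come from that fit unless another is named. For border macrophage-like cells the sums and blocks were pools. The fit scales samples by TMM, and scaling by library size alone moved the median gene in 6 of the 7 comparisons by over 0.1, from -0.07 to -0.36 on the log2 scale for macrophage- against microglia-like cells, from -0.15 to -0.61 for monocyte- against microglia-like cells, from 0.05 to 0.25 for macrophage- against monocyte-like cells, from -0.10 to -0.20 for border macrophage- against microglia-like cells, from -0.04 to -0.15 for the Ly-6C gates and from 0.04 to 0.22 for the TMEM119 gates. It also moved the share of called genes that were higher, from 46.9 to 30.2%, from 44.4 to 26.9%, from 51.7 to 72.0%, from 51.1 to 43.0%, from 50.15 to 34.15% and from 49.0 to 75.5% in the same order, and with DESeq2 the border macrophage share was 62.4%. Where this shift alters a call on one of the 8 genes, it is stated beside the result.

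Macrophage-like cells carried the activin and neuregulin transcripts that microglia-like cells of the same samples nearly lacked, and they had less of the PDGF B chain. In 12 hashed samples, 5 of the 8 genes were higher and 2 lower in macrophage-like cells. In this comparison 34.8% of all 11198 genes tested were higher and 39.4% lower, so the count itself is close to the background, and the sizes carry the information. The median of the 8 log2 fold changes was 0.89, against -0.07 over all genes. Inhba ranged from 8.75 to 167 CPM in macrophage-like cells (median 112) and from 0 to 3.32 in the microglia-like cells of the same samples, with no overlap (log2 fold change 7.82 ± 0.20, adjusted p = 1.9e-18, higher in 12 of 12). Nrg1 ranged from 4.38 to 59.4 CPM (median 45.8) against 0 to 3.32 (7.26 ± 0.21, adjusted p = 1.4e-17). In both cases the lowest macrophage-like value came from hashtag 3 of pool 3, a sum of 20 cells. Osm was higher in 12 of 12 samples, at 166 to 807 CPM against 77.9 to 203 (1.62 ± 0.19, adjusted p = 1e-07).

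The 2 PDGF chains went separate ways. Pdgfb ranged from 12.1 to 39.4 CPM in macrophage-like cells and from 108 to 225 in microglia-like cells, with no overlap (-2.51 ± 0.09, adjusted p = 4.3e-16, lower in 12 of 12), and without the macrophage-like cluster led by Dpep2 the fold change was -3.29 (adjusted p = 8.5e-15). Pdgfa was called higher in macrophage-like cells (0.30 ± 0.10, adjusted p = 0.013), but its CPM was higher in only 5 of 12 samples, and with library size scaling the fold change was 0.01 (adjusted p = 0.93). The ranges of Pdgfa, 24.3 to 96.3 CPM and 30.3 to 63.8 CPM, overlapped. Hbegf was lower in 11 of 12 samples (-0.78 ± 0.19, adjusted p = 0.0011), at 6.97 to 67.5 CPM against 11.5 to 87.3. That call rests on a microglia-like cluster led by immediate-early genes: without it the fold change was 0.18 (adjusted p = 0.45). It also rests on pool 2, without which it was -0.28 (adjusted p = 0.22). Gdf15 was higher in 11 of 12 samples (1.47 ± 0.21, adjusted p = 2.2e-06), and by 0.825 without the macrophage-like cluster led by Rsad2 (adjusted p = 0.00059). Igf1 was at 0.680 to 38.9 CPM in macrophage-like and 0 to 29.3 in microglia-like cells, and the fold change of -0.18 ± 0.25 did not pass (adjusted p = 0.53).

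Igf1 depended on how the classes were drawn. With microglia-, monocyte- and macrophage-like cells split by the TMEM119 antibody alone, Igf1 was higher in the TMEM119-low cells (1.49, adjusted p = 0.00013). That split adds the monocyte-like cells and puts some microglia-like cells into the low arm. With classes drawn by cluster, the Igf1 fold change was 0.21 without pool 1 (adjusted p = 0.51) and 0.28 on sums per pool (adjusted p = 0.087). The unnamed cluster led by Cst7 and Cd72, which entered neither split, had 68.0 CPM of Igf1.

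Monocyte-like cells had the highest Osm and Nrg1 of the 5 classes and little Igf1 or PDGF transcript. This comparison shares its microglia-like sums with the one above. Of the 8 genes, 3 were higher and 4 lower than in microglia-like cells of 11 hashed samples, where 34.1% of 10051 genes were higher and 42.7% lower. Osm ranged from 275 to 682 CPM in monocyte-like cells and exceeded the microglia-like cells in 11 of 11 samples (2.14 ± 0.14, adjusted p = 2.1e-13). Nrg1 ranged from 16.98 to 199.6 CPM (7.73 ± 0.21, adjusted p = 3.6e-22) and Inhba from 20.7 to 170 CPM (6.98 ± 0.21, adjusted p = 3.3e-21). Igf1 was at 0 in 9 of the 11 monocyte-like sums and reached 3.51 CPM in the highest (-3.63 ± 0.37, adjusted p = 2.1e-09). Pdgfb, at 2.72 to 14.8 CPM, was lower (-3.80 ± 0.14, adjusted p = 2.1e-19), and so was Pdgfa, at 4.79 to 35.7 CPM (-1.18 ± 0.18, adjusted p = 1.6e-06). Hbegf was lower in 9 of 11 samples (-0.60 ± 0.25, adjusted p = 0.033), a call that was lost without the same immediate-early microglia-like cluster (0.29, adjusted p = 0.33), without pool 2 (-0.23, adjusted p = 0.49) and without pool 3 (-0.55, adjusted p = 0.07). Gdf15 did not pass (-0.68 ± 0.38, adjusted p = 0.10), and passed with library size scaling (-1.14, adjusted p = 0.0094), with no filter on low counts (-0.87, adjusted p = 0.0027) and on sums per pool (-0.63, adjusted p = 0.027).

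Set against monocyte-like cells, macrophage-like cells had more Igf1, Gdf15, Inhba and Pdgfa and less Osm and Nrg1. Pdgfb was also called higher, although no Pdgfb expression was read from these classes above. Thus 5 of the 8 were higher and 2 lower in 11 samples, with 30.4% of 9615 genes higher and 28.4% lower. Igf1 was higher in 11 of 11 samples, at 0.680 to 38.9 CPM against 0 to 3.51 (3.44 ± 0.36, adjusted p = 1.1e-08). Gdf15 was higher in 11 of 11, at 4.80 to 77.4 CPM in macrophage-like cells (2.31 ± 0.30, adjusted p = 3.5e-07), and by 1.62 without the Rsad2 cluster (adjusted p = 2e-05). Pdgfa was higher in 11 of 11 (1.42 ± 0.14, adjusted p = 3.8e-09). Pdgfb too was higher in 11 of 11 (1.17 ± 0.16, adjusted p = 1.2e-06), but without the Dpep2 cluster, which carried microglia markers, it was 0.41 (adjusted p = 0.033). Inhba was higher in 8 of 11 (0.77 ± 0.18, adjusted p = 0.00074), and without pool 1 it no longer passed (0.58, adjusted p = 0.056). Osm was lower in 10 of 11 (-0.57 ± 0.09, adjusted p = 9.8e-06), and Nrg1 in 10 of 11 (-0.75 ± 0.14, adjusted p = 8.2e-05). Hbegf did not pass (-0.10 ± 0.22, adjusted p = 0.71), its sign turned with library size scaling (0.12), and on sums per pool it was lower (-0.43, adjusted p = 0.012).

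Border macrophage-like cells were too few to test by hashed sample, so their counts were summed per pool, with 51, 66 and 16 cells in pools 1 to 3. Igf1 stood at 84.5, 172 and 89.4 CPM in these cells and at 4.95, 7.63 and 7.999 CPM in the microglia-like cells of the same pools. The groups did not overlap and Igf1 was higher in all 3 pools (4.32 ± 0.33, adjusted p = 2.7e-36). The p-values of this fit of 3 pairs rest on variance shared across genes, so they do not measure the spread of the pools alone. Pdgfb was lower in all 3, at 42.3, 37.5 and 35.8 CPM against 127, 196 and 219 (-2.08 ± 0.29, adjusted p = 5e-11). Pdgfa passed narrowly as lower (-1.23 ± 0.45, adjusted p = 0.04), on 11 UMIs, and without pool 2 it was -0.35 (adjusted p = 0.94). So 1 of the 6 genes tested was higher and 2 were lower, where 7.66% of 10088 genes were higher and 7.34% lower. Hbegf, at 37.0, 94.9 and 107 CPM against 19.4, 66.5 and 75.5, did not pass (0.68 ± 0.27, adjusted p = 0.082), nor did Osm (0.17 ± 0.25, adjusted p = 0.77; 0.98, adjusted p = 0.017, in hashed samples with at least 10 cells) or Gdf15 (-0.58 ± 0.82, adjusted p = 0.76). Inhba and Nrg1 had no UMI in the 133 cells, which allows up to 4.30 CPM, while the macrophage-like level was at least 23.9-fold higher for Inhba and at least 9.66-fold higher for Nrg1. The dissociation-induced genes moved with this contrast: 10 of the 15 tested were higher in border macrophage-like cells and none lower, and their summed level was 29291 to 39018 CPM against 18492 to 26460 in microglia-like cells. Their part in the Igf1 and Hbegf values was not tested. The pool sums also mix the hashtags differently in the 2 arms. In pool 1, hashtag 2 gave 9 border macrophage-like and 1911 microglia-like cells, and hashtag 3 gave 11 and 1001. Apart from the fit in hashed samples with at least 10 cells, the part of this mix was not tested.

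Taken as a class, dendritic cell-like cells had less of every factor in the main fit than macrophage-like cells of the same samples. All 8 were called lower in the fit over 10 samples, where 26.6% of 9190 genes were lower and 26.1% higher. Igf1 had no UMI in 890 dendritic cell-like cells, so that macrophage-like cells were at least 18.2-fold higher against the 3-count floor over the class (adjusted p = 6.6e-06). Inhba was 0 to 18.8 CPM in dendritic cell-like cells against 43.1 to 167 in macrophage-like cells, with no overlap (-3.77 ± 0.28, adjusted p = 4.2e-10). Pdgfa was 0 to 11.7 against 24.3 to 79.6 CPM, again with no overlap (-3.09 ± 0.31, adjusted p = 4.6e-08). Gdf15, Osm and Hbegf were lower in 9, 10 and 9 of 10 samples, with adjusted p = 1.1e-08, 3.3e-07 and 0.0066. Nrg1 was the closest to macrophage-like cells apart from Pdgfb (-0.65 ± 0.17, adjusted p = 0.0026), and without pool 1 it missed the threshold (-0.45, adjusted p = 0.093). Pdgfb was near the threshold (-0.42 ± 0.17, adjusted p = 0.043), and was lost with DESeq2 (adjusted p = 0.076), on sums per pool (0.053), without cells of high doublet score (0.29) and without pool 2 (0.49); Hbegf was lost without pool 2 (-1.03, adjusted p = 0.083). Within the class, the migratory cluster led by Ccr7 had 79.2 CPM of Nrg1 (257 cells), against 12.0 CPM in the cluster led by Ccl17 (633 cells). The macrophage-like class had 41.5 CPM. For Pdgfb, the Ccr7 cluster had 24.9 CPM, against 7.37 to 16.8 in the macrophage-like clusters other than the Dpep2 cluster. This comparison was not run without the Dpep2 cluster. A Pdgfb UMI was seen in 3.36% of thinned dendritic cell-like cells (11.5% unthinned). That share too was below the 6.26% of NK cell-like cells, so no Pdgfb expression is read from it.

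**Figure D3:**
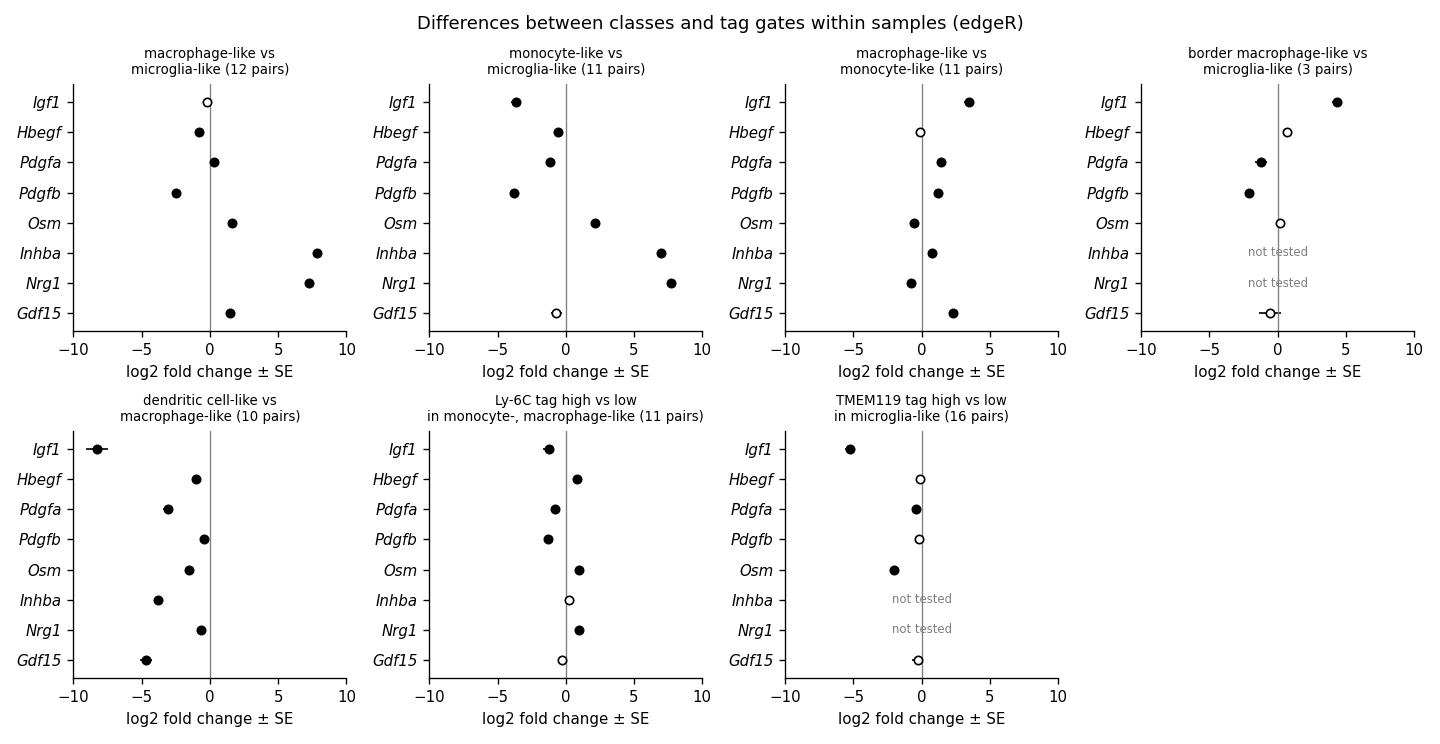
log2 fold change with its standard error (horizontal axis) of the 8 genes in 7 comparisons within hashed samples, or within pools for border macrophage-like cells. Filled points passed an edgeR adjusted p of 0.05 and open points did not; Inhba and Nrg1 lie near 7 to 8 in macrophage- and monocyte-like against microglia-like cells, and all 8 genes lie below 0 in dendritic cell-like against macrophage-like cells.

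The surface antibodies gave another way to order the cells. Ly-6C marks recently arrived monocytes, and cells of the monocyte- and macrophage-like classes in the highest 25% of the tag were set against the lowest 25% of the same sample, in 11 samples. Osm was higher in the Ly-6C-high cells of 11 of 11 samples, at 244 to 703 CPM against 135 to 499 (0.98 ± 0.09, adjusted p = 1.4e-08), and so was Nrg1 (0.99 ± 0.11, adjusted p = 4.7e-07). Hbegf was higher in 10 of 11 (0.84 ± 0.18, adjusted p = 0.00077), and without pool 1 it was 0.40 (adjusted p = 0.059). Pdgfa (-0.77 ± 0.14, adjusted p = 0.00013) and Pdgfb (-1.28 ± 0.17, adjusted p = 3.1e-06) were lower in 11 of 11. For Pdgfb, no expression was read from these classes above. The gates were not run without the macrophage-like cluster led by Dpep2, which carried microglia markers and had 72.4 CPM of Pdgfb. In all, 3 of the 8 genes were higher and 3 lower, where 24.1% of 9410 genes were higher and 23.9% lower. The third lower gene was Igf1 (-1.27 ± 0.37, adjusted p = 0.0076), although its CPM was lower in only 6 of 11 samples, and it was lost within macrophage-like cells alone (-0.38, adjusted p = 0.42), with DESeq2 (-1.01, adjusted p = 0.077), with hashtags assigned by a background model (-1.03, adjusted p = 0.055) and without pool 2 (-0.94, adjusted p = 0.22). Inhba (0.22 ± 0.22, adjusted p = 0.42) and Gdf15 (-0.25 ± 0.34, adjusted p = 0.56) did not pass. Within macrophage-like cells alone, gates added after seeing the data, Inhba was higher in the Ly-6C-high cells (0.73, adjusted p = 0.0075). Monocyte markers moved with the tag in 11 of 11 samples, with a summed level of 17685 to 32292 CPM against 6362 to 17431 and 12 of 12 markers seen in both gates.

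In microglia-like cells, the TMEM119 gates separated Osm and Igf1. TMEM119 is a surface protein of resting microglia, and both gates could be drawn in 16 samples. Osm was lower in the TMEM119-high cells of 15 of 16 samples, at 7.39 to 57.8 CPM against 38.1 to 317 (-2.01 ± 0.16, adjusted p = 4.8e-11). The range of the TMEM119-high gates spans the 35.2 CPM of NK cell-like cells, so how much Osm these cells express is not read from it. Igf1 gave 3 UMIs over all TMEM119-high gates and 312 over the low gates; it was lower in 13 samples and higher in none (adjusted p = 2.7e-11). Pdgfa was called lower (-0.43 ± 0.12, adjusted p = 0.0052), in 9 of 16 samples, but was lost with library size scaling (-0.25, adjusted p = 0.077) and without pool 2 (-0.30, adjusted p = 0.14). So 3 of the 6 genes tested were lower and none higher, where 21.2% of 8786 genes were lower and 20.4% higher. Pdgfb (-0.18 ± 0.07, adjusted p = 0.052), Hbegf (-0.16 ± 0.25, adjusted p = 0.65) and Gdf15 (-0.30 ± 0.43, adjusted p = 0.61) did not pass, and the signs of Pdgfb and Hbegf turned with library size scaling (0.01 and 0.04). With gates on raw tag counts both were lower (Hbegf -1.02, adjusted p = 6.9e-06; Pdgfb -0.20, adjusted p = 0.028), so these calls depend on how the gate was drawn. The monocyte markers were lower in TMEM119-high cells of 16 of 16 samples (313 to 650 CPM against 545 to 1849 in the low gate), and the macrophage markers in 14 of 16 (131 to 259 against 146 to 4035); 12 of 12 and 16 of 17 of these markers were seen in the low gates, with Fabp4 at 0. Inhba and Nrg1, which mark the infiltrating classes among the 8 genes, gave 8 and 5 UMIs in the low gates. The part of other cells in the Osm and Igf1 values was not tested by the gates.

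Across hashtags, Osm in microglia-like cells separated by number. It was 25.2 CPM under hashtag 1 and 25.7 under hashtag 2 of pool 1, 45.9 and 30.4 in pool 2, and 28.7 and 41.8 in pool 3. Under hashtags 3 to 6 it was 81.3, 125, 92.5 and 129 CPM in pool 1, 106, 119, 188 and 106 in pool 2, and 77.9, 103, 147 and 203 in pool 3. The 6 samples of hashtags 1 and 2 were thus the 6 lowest of 18, with no overlap. NK cell-like cells had 35.2 CPM (95% interval 27.6 to 44.3). Of the values under hashtags 1 and 2, only the 45.9 CPM of hashtag 1 in pool 2 lay above that interval. They are near the NK cell-like level, so no Osm expression is read from them. The makeup of the class differed as well. Microglia-like cluster 15, led by Egr3, Tnf, Ccl4, Il1a, Csf1 and Ccl3, had 190 CPM of Osm, against 26.0 to 49.0 in the other 4 microglia-like clusters. It held 0.471 to 2.46% of the microglia-like cells under hashtags 1 and 2 and 20.7 to 73.5% under hashtags 3 to 6. Cluster 2, led by C4b, held 0.378 to 2.83% and 6.76 to 33.2%, and cluster 1, led by Fcrls, 35.4 to 71.6% and 2.94 to 23.7%, also with no overlap. Without cluster 15, Osm was 18.4 to 41.2 CPM under hashtags 1 and 2 and 24.1 to 52.7 under hashtags 3 to 6, and the ranges overlapped. Without cells of high doublet score the ranges were 24.8 to 45.9 and 78.3 to 209 CPM.

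Several markers moved with that split. The summed macrophage markers in microglia-like cells were 146 to 233 CPM under hashtags 1 and 2 and 279 to 1745 under hashtags 3 to 6, with 16 of 17 seen in each set and Fabp4 at 0. The monocyte markers were 406 to 580 and 580 to 1071 CPM, with 12 of 12 seen. The microglia markers were 30449 to 35145 and 16733 to 24602 CPM. The median UMIs per microglia-like cell ranged from 3154 to 5566 and from 4397 to 8179. Inhba and Nrg1, each above 40 CPM in the macrophage-like class, were at 0 to 3.32 CPM in the microglia-like cells of all 18 samples. The part of these markers and of depth in the Osm values was not tested.

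**Figure D4:**
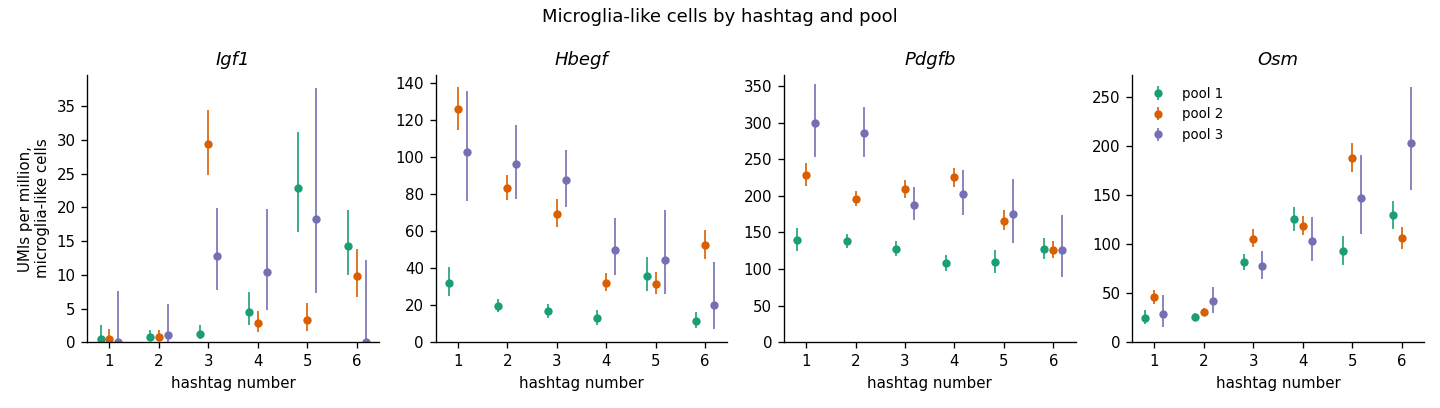
Level in microglia-like cells in CPM (vertical axis) by hashtag number (horizontal axis) and pool (color), for Igf1, Hbegf, Pdgfb and Osm. Bars are 95% Poisson intervals; all Osm values under hashtags 1 and 2 lie at or below 45.9 and all under hashtags 3 to 6 at or above 77.9.

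Igf1 in microglia-like cells was 0 to 1.02 CPM in the 6 samples of hashtags 1 and 2. Under hashtags 3 to 6 it was 1.205, 4.51, 22.8 and 14.2 CPM in pool 1, 29.3, 2.79, 3.27 and 9.83 in pool 2, and 12.8, 10.4, 18.3 and 0 in pool 3. The highest value came from hashtag 3 of pool 2. The 0 under hashtag 6 of pool 3 comes from 34 cells and allows up to 9.96 CPM, so it cannot be told from the 9.83 CPM of hashtag 6 in pool 2. Without cluster 15 the highest value under hashtags 3 to 6 was 8.68 CPM. Hbegf differed by pool as well as by hashtag: it was 11.5 to 36.0 CPM in the 6 samples of pool 1, 31.5 to 126 in pool 2 and 19.9 to 103 in pool 3. In pools 2 and 3 hashtags 1 and 2 had the highest values, at 126 and 83.2 CPM and at 103 and 95.9 CPM. In pool 1 hashtag 5 was highest at 36.0 CPM. The makeup of the class varied here too. Microglia-like cluster 3, led by Arl4d, held 23.7 to 57.1% of the class under hashtags 1 and 2. Under hashtags 3 to 6 it held 11.8 to 51.4%. Without cluster 3, Hbegf was 7.294 to 29.17 CPM under hashtags 1 and 2. Under hashtags 3 to 6 it was then 3.781 to 33.03 CPM. Pdgfb was 138 to 299 CPM under hashtags 1 and 2 and 108 to 225 under hashtags 3 to 6, with overlap. Pdgfa was 30.3 to 63.8 CPM over all 18 samples.

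Infiltrating cells varied by sample as well. In macrophage-like cells, Gdf15 was 77.4 CPM under hashtag 3 of pool 2 and 78.8 under hashtag 3 of pool 3, the latter from 20 cells, and 4.80 to 25.9 CPM in the other 10 samples. Osm was 610 CPM under hashtag 3 of pool 2, 807 under hashtag 4 of pool 3 and 166 to 417 CPM elsewhere. Igf1 was 13.2 to 38.9 CPM in 4 samples (hashtag 5 of pool 1, hashtag 3 of pool 2 and hashtags 3 and 4 of pool 3) and 0.680 to 5.73 CPM in the other 8. The makeup of the class differed as well. The cluster led by Rsad2 had 624 CPM of Osm, 93.3 of Gdf15 and 16.2 of Igf1. It gave 274 of 519 macrophage-like cells under hashtag 3 of pool 2 and 41 of 84 under hashtag 4 of pool 3. It gave 138 of 803 under hashtag 5 of pool 1 and 3 of 20 under hashtag 3 of pool 3. In the other 8 samples its largest part was 77 of 680, under hashtag 5 of pool 2. Its part in these values was not tested. In monocyte-like cells, Nrg1 was 110 and 199.6 CPM under hashtags 5 and 6 of pool 3 and 16.98 to 67.9 CPM in the other 9 samples, and Osm was highest under hashtag 3 of pool 2, at 682 CPM.

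Clusters inside a class differed more than some classes did. Macrophage-like cluster 10, led by Rsad2, Ctsk and other interferon-induced or matrix genes, had 257 CPM of Inhba, 93.3 of Gdf15 and 624 of Osm in 688 cells. The cluster led by Nos2 had 168 CPM of Inhba but 3.23 of Gdf15, and the one led by Gpnmb had 57.0 and 15.2 CPM. In cluster 10, Inhba was 290, 262 and 124 CPM in pools 1 to 3, and Gdf15 was 57.8, 114 and 40.9. Hashtag 3 of pool 2 gave 39.8% and hashtag 5 of pool 1 gave 20.1% of its cells, and no sample under hashtag 1 or 2 gave more than 1 of its cells. Microglia-like cluster 3, led by Arl4d, Egr1 and Jun, had 126 CPM of Hbegf, at 58.6, 151 and 152 CPM in pools 1 to 3, against 4.40 to 35.6 in the other microglia-like clusters. The 15 dissociation-induced genes, summed, moved with it, at 35061 CPM in cluster 3 against 12393 in the cluster led by Fcrls and 7501 in the one led by C4b. Hbegf was not part of that list, and the share of the enzymatic preparation in its level was not tested. Microglia-like cluster 15 had a level of 17.9995 CPM of Igf1, against 0 to 3.55 in the others of the class.

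**Figure D5:**
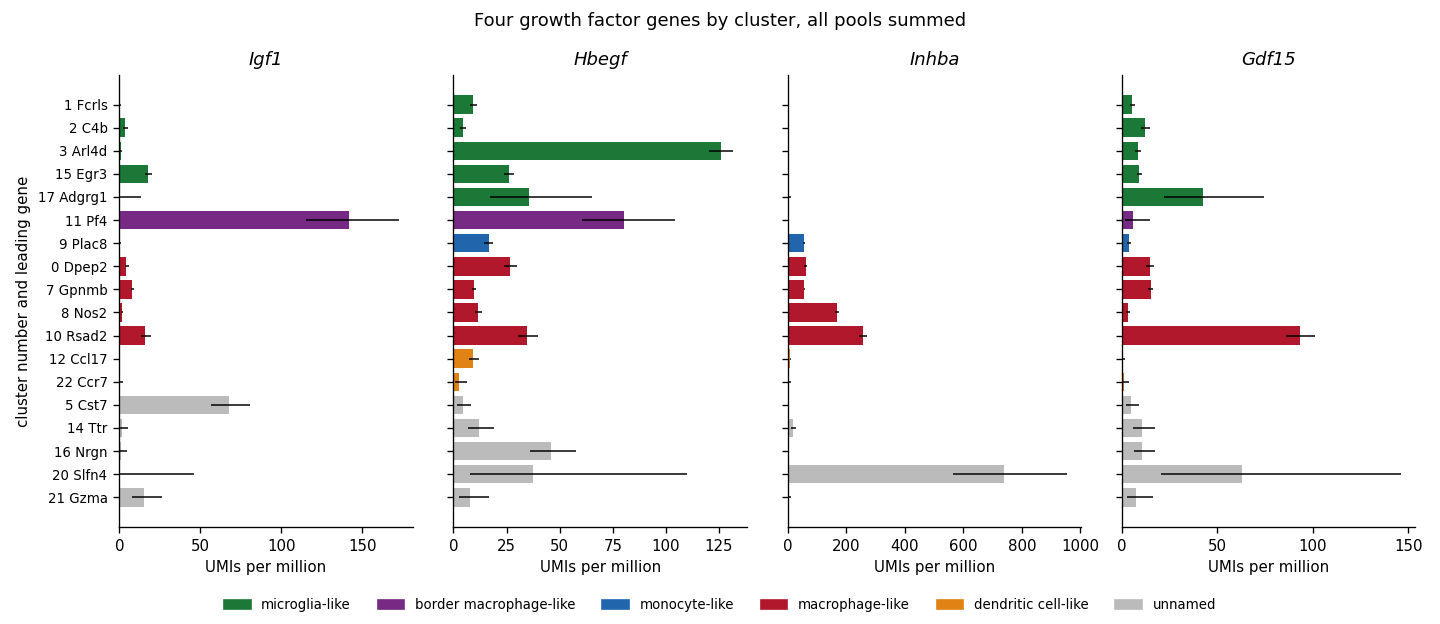
Level in CPM (horizontal axis) of Igf1, Hbegf, Inhba and Gdf15 in each cluster of the 5 classes and in unnamed clusters (vertical axis, number and leading gene), with 95% Poisson intervals. Igf1 stands at 142 in cluster 11 and 68.0 in cluster 5, Hbegf at 126 in cluster 3, and Gdf15 at 93.3 in cluster 10.

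Receptors and partners of the factors were counted from lists of each pathway, tested in the same fits. Of all genes, 34.8% were higher and 39.4% lower in macrophage- than in microglia-like cells, and 7.66% were higher and 7.34% lower in border macrophage- than in microglia-like cells, so with lists this short the counts say little and the named genes carry the values. For the IGF axis, 3 of the 6 genes tested were higher and 3 lower in macrophage- than in microglia-like cells, of 12 in the list. Igf1r, the receptor, was lower (-1.50 ± 0.14, adjusted p = 3.7e-09), while Igf2r, which clears IGF-2, was higher (3.04 ± 0.21, adjusted p = 3e-11). In border macrophage-like cells 2 of 4 were higher and none lower than in microglia-like cells. The larger change was in the binding protein gene Igfbp4, at a median of 338 against 19.5 CPM over 3 pools (4.15 ± 0.21, adjusted p = 6.6e-84). That p-value has the limit given above for the fit of 3 pairs. Igfbp6 was higher in monocyte-like cells than in both microglia-like (3.84 ± 0.26, adjusted p = 3e-13) and, read from the reverse contrast, macrophage-like cells (-2.11 ± 0.20, adjusted p = 3.2e-09).

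Of 8 genes tested from the EGF list, 4 were higher and 4 lower in macrophage- than in microglia-like cells, near the shares of all genes (34.8 and 39.4%). Besides the family and its receptors, that list holds genes of shedding such as Adam17 and Rhbdf2. Tgfa, an EGFR ligand, was lower in 12 of 12 samples, at a median of 3.55 against 41.4 CPM (-3.23 ± 0.14, adjusted p = 5e-15), and Areg, another, was higher at a median of 3.26 against 0 CPM (4.91 ± 0.36, adjusted p = 2.4e-10). Rhbdf2, which brings the protease ADAM17 to the surface, was higher in monocyte- than in microglia-like cells (1.87 ± 0.14, adjusted p = 4.4e-12). Among the PDGF and VEGF genes, 6 of 8 were higher and 2 lower in macrophage-like cells (34.8 and 39.4% of all genes), with Vegfa at a median of 177 against 6.76 CPM (4.58 ± 0.22, adjusted p = 4e-14) and its receptor gene Flt1 at 28.3 against 1.94 CPM (4.08 ± 0.16, adjusted p = 1.2e-15).

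In the IL-6 list, 1 of 8 genes tested was higher and 4 were lower in macrophage- than in microglia-like cells, against 34.8 and 39.4% of all genes. The higher gene was Bcl3, which like Stat3 was listed beside the family and its receptors. Lifr, which encodes the LIF receptor chain, was lower (-2.07 ± 0.10, adjusted p = 2.7e-14), as was the cytokine gene Clcf1 (-1.95 ± 0.13, adjusted p = 1.4e-11). Bcl3 was higher (2.001 ± 0.13, adjusted p = 7.5e-12), and was higher still in monocyte-like cells, which exceeded macrophage-like cells in 11 of 11 samples (-1.61 ± 0.11 for macrophage against monocyte, adjusted p = 7.6e-12). Of the activin and GDF genes, 2 of 9 were higher and 4 lower, against the same shares. Gdf3 was higher, at a median of 20.7 against 0.194 CPM (6.84 ± 0.21, adjusted p = 3.9e-17), while the activin receptor gene Acvr2b (-2.15 ± 0.15, adjusted p = 3.5e-11) and the inhibitor Smad7 (-1.97 ± 0.07, adjusted p = 5.2e-16) were lower. The integrated stress response, a pathway in which Gdf15 is a known target, had 5 of 10 genes higher and 5 lower, again beside 34.8 and 39.4% of all genes, led by Slc7a11 (4.14 ± 0.20, adjusted p = 6.4e-14) and Phgdh (-3.14 ± 0.10, adjusted p = 8.1e-17).

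The genes with the pattern most like each factor were sought over 45 sums of class and hashed sample with at least 50 cells, from 7413 genes, by Pearson correlation of log2(CPM + 1). These sums share classes, so the values mostly follow the classes and are descriptions. Pdgfb was most like Cadm1, Cx3cr1 and Pag1 (r = 0.97 each). Nrg1 was most like Hopx, Atp8b4 and Emb (0.98 each), and Inhba most like F10, Lyz2 and Fth1 (0.95, 0.93 and 0.93). Osm was most like Akr1a1, Mapkapk2 and Cd300lf (0.93, 0.93 and 0.92). Pdgfa was nearest Tmem37, Plau and Slc38a7 (0.91, 0.91 and 0.90), Hbegf nearest Cd164, Ctnnb1 and Fubp3 (0.83, 0.81 and 0.81), Igf1 nearest Ctsz, Ly9 and Spp1 (0.81, 0.78 and 0.77), and Gdf15 nearest Mfsd5, Atp6v1c1 and Pwp1 (0.75, 0.73 and 0.71). With class means removed, Igf1 kept r = 0.69 to 0.71 with its 3 genes and Osm 0.77 to 0.83, whereas Nrg1 had 0.00142 with Emb and 0.43 with Hopx. No border macrophage-like sum entered, since none had 50 cells. Among the 8 genes themselves, Inhba and Nrg1 had the highest correlation (0.84), and -0.13 with class means removed.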

How the data were processed

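The mRNA and antibody-tag libraries of 3 pools were used, as UMI counts per gene or tag and barcode that the authors deposited. Per the file headers they were written by Cell Ranger 3.1.0 (pool 1) and 4.0.0 (pools 2 and 3). Per the submitters' processing notes the genome build was mm10, and the tools listed are Seurat 3, bcl2fastq 2.20.0.422 and, for Cell Ranger, versions 4.0.0 and 3.0.1. The 8 genes, the lists and the tests were chosen with earlier results of these data known.

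Barcodes with at least 200 genes, 500 UMIs and under 10% mitochondrial UMIs were kept. One hashtag had to hold at least 80% of at least 10 hashtag UMIs, which also removes most doublets of unlike hashtags. Scrublet's own cutoff marked 0, 462 and 6 barcodes and was taken as not working in pools 1 and 3, so removal of scores over 0.2 was an alternative. Cells were clustered in scanpy 1.11.5 (2000 variable genes, 30 components, 15 neighbours, resolution 1) and named by markers. Counts were summed per hashed sample and class where 20 cells or more were present. The sums were compared by edgeR 4.0.16 in R 4.3.3 (TMM, filterByExpr, quasi-likelihood, hashed sample as block), calling an adjusted p under 0.05. Apart from the border macrophage comparison, both arms come from the same hashed sample, which is the pairing. In the border macrophage comparison both arms come from the same pool, over all its hashtags. Border macrophage-like cells reached 20 cells in 1 hashed sample only, so the planned test was replaced by sums per pool with at least 10 cells. Nothing says that hashed samples are separate animals, so p-values measure the spread between these samples, which may be technical. The fit estimates that spread with variance shared across genes, which weighs most in the border macrophage comparison of 3 pairs. Poisson and Clopper-Pearson intervals are at 95%, and the floor for a count of 0 is 3 counts. Tag gates are the highest and lowest 25% of the centred log ratio. The fit was tested on simulated counts. Alternatives were DESeq2 1.42.0, library size scaling, no filter, other hashtag, cell number and gate rules, and leaving out pools; leaving out clusters or a sample was chosen after seeing the data.

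Named genes are the 8 in every comparison, up to 3 called genes with the largest change per list, and the 3 nearest patterns per gene.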

Additional observations from a re-analysis of the deposited data

Results flagged for a closer look

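Some of the highest levels lay in clusters that were given no name and entered no comparison. Cluster 5, led by Cst7, Timp2 and Cd72, had 68.0 CPM of Igf1 in 446 cells, and NK cell-like cells had none. It was 64.5, 63.2 and 148 CPM in pools 1 to 3.

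Cluster 20, led by Slfn4, Malt1 and Neat1, had 740 CPM of Inhba, 653 CPM of Osm, 351 CPM of Nrg1 and 62.8 CPM of Gdf15. It held 75 cells with a median of 924 UMIs, 2 of them from pool 3.

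Cluster 16, led by the neuronal genes Nrgn, Snap25 and Syt1, had 198 CPM of Pdgfb in 254 cells, 166 of them from pool 2. All 14 microglia markers were each seen in at least 10% of its cells, at a summed 26329.6 CPM. Microglia-like cluster 3 had 28243.5 CPM of these markers and 194 CPM of Pdgfb. The part of microglial RNA in the Pdgfb of cluster 16 was not tested.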

How the results depend on the processing

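Of 652 fold changes of the 8 genes recomputed under an alternative, 588 kept their direction and side of the threshold, 33 no longer passed, 14 newly passed and 17 turned sign. The number of genes called between border macrophage- and microglia-like cells was 1513, 894 with DESeq2 and 552 to 1509 with a pool left out. Between dendritic cell- and macrophage-like cells it was 4837, and 2820 to 5021 with a pool left out. For the Ly-6C gates it was 4520, and 2992 with no replicate block, 2628 with gates on raw tag counts, 2240 within macrophage-like cells and 2896 to 4374 with a pool left out. For the TMEM119 gates it was 3662, and 1944 to 3599 with a pool left out. With no replicate block, Osm (-0.46, adjusted p = 0.10) and Inhba (0.67, adjusted p = 0.065) no longer passed between macrophage- and monocyte-like cells in edgeR. The cause of these moves was not tested.

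The log2 fold changes that turned sign were as follows. Igf1 in macrophage- against microglia-like cells was 0.283 with the replicate block on sums per pool, 0.070 with HTODemux hashtags, 0.206 without pool 1 and 1.494 with classes by surface tag, and leaving out 1 pool gave -0.451 to 0.206. Without cluster 3, Hbegf was 0.176 in macrophage- and 0.291 in monocyte- against microglia-like cells. Hbegf in macrophage- against monocyte-like cells was 0.139 with DESeq2, 0.116 with library size scaling and 0.167 without pool 1 (-0.175 to 0.167 over pools left out). Gdf15 was 0.868 in border macrophage-like cells without pool 2 (-2.464 to 0.868). In the Ly-6C gates Gdf15 was 0.170 with HTODemux hashtags, 0.816 without pool 2 (-0.702 to 0.816) and 0.519 within macrophage-like cells. In the TMEM119 gates Hbegf was 0.034 with DESeq2 and 0.043 with library size scaling, Pdgfb was 0.012 with library size scaling, and Gdf15 was 0.994 without pool 2 (-1.006 to 0.994). Pool 3 gave 1888 cells, and Inhba, Nrg1 and Igf1 rest on few UMIs in microglia-like cells, which limits their precision there.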

Other observations

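In pool 3, 9864 filtered barcodes had no hashtag with 80% of the hashtag UMIs and were in no group. They had 145 CPM of Osm, 88.3 CPM of Pdgfb and 15.5 CPM of Inhba.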
